A study of Mus musculus with 6 samples.

Results

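A set of 8 genes measured in single mouse blastocysts encodes the enzymes that turn farnesyl diphosphate, by way of squalene, into cholesterol: Fdft1, Sqle, Lss, Cyp51, Msmo1, Nsdhl, Ebp and Dhcr7. All 8 were found among the 12149 listed genes by Ensembl identifier. They were chosen from the contrast between the groups, in which sterol synthesis genes had shown higher levels, so the group differences of these 8 genes are given as a description without a test. Zygotes of the C57BL/6 background received small RNAs of mouse sperm by injection at 2 ng/µl and grew in culture to embryonic day 3.5, about 96 h later. In 3 control embryos (Ctl) the small RNAs came from normal males, and in 3 other embryos (Dep) from males in which stress had induced depressive behaviour. The labels do not say whether embryos shared parents, an injection day or a small RNA preparation. By its label each library is 1 whole embryo, so its value averages trophectoderm, epiblast and primitive endoderm cells, and fewer cells of a type cannot be told apart from less RNA per cell. Xist, made chiefly where an X chromosome is inactivated, and the Y-linked Ddx3y both exceeded 100 normalized counts in 5 of the 6 libraries, all but Ctl 1, although each is labelled as a single embryo. How both came to be in 1 library was not tested.

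Cholesterol is built from acetyl-CoA in a series of stages. The mevalonate pathway makes the isoprenoid farnesyl diphosphate, which also feeds dolichol, ubiquinone and protein prenylation, and squalene synthase commits it to sterols. The enzymes after that step close the sterol rings, strip methyl groups and move double bonds. Most genes of the route are known targets of the SREBP transcription factors, which the cell activates when membrane sterol falls. Cholesterol stiffens membranes, and loss of several of these enzymes disturbs development in mice.

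Because sterol genes are known for a shared regulator, the DNA before the transcription start is shown for 4 of the enzymes, those with 1 start and more than 1 CCAAT match, and Cyp51, whose levels varied most. The RefSeq table of promoters (GRCm38.p6) matched 6 of the 8 by symbol, with 8 starts in all because Dhcr7 has 3, and held no entry for Fdft1 or Sqle. The lines give the 180 bases before the start, 5′ to 3′ on the gene's strand. Msmo1 lies at chr8:64733579-64733758 on the minus strand, Nsdhl at chrX:72918341-72918520 on the plus strand, Ebp at chrX:8193513-8193692 on the minus strand and Cyp51 at chr5:4104698-4104877 on the minus strand. Capitals mark CCAAT, the box bound by NF-Y, in either orientation, and in Msmo1 also the motif TCANNCCA.
Msmo1: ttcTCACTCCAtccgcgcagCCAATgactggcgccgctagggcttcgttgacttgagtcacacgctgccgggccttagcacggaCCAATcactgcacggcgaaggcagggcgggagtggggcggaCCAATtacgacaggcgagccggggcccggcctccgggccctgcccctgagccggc
Nsdhl: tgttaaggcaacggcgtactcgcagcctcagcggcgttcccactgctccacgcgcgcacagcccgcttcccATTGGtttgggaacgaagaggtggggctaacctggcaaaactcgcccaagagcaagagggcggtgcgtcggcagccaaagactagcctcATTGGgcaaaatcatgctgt
Ebp: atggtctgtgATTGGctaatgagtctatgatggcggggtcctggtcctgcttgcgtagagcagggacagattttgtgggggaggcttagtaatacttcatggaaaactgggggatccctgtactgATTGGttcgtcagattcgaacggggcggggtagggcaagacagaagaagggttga
Cyp51: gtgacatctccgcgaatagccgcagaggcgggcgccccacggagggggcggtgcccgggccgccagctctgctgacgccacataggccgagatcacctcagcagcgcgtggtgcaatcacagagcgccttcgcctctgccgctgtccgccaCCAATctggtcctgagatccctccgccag

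The motifs were searched on both strands over 300 bases, from 250 before to 50 after each start. CCAAT was present at 6 of the 8 starts and in all 6 enzymes with an entry, against 37.4% of all 32851 promoters of the table. Nsdhl had 4 matches, of which the printed stretch holds those before the start, Msmo1 3, Ebp 2, Cyp51 and Lss 1 each, and Dhcr7 2, both at the third start. GGGCGG, the GC box, was found at 7 of 8 starts and in 35.7% of all promoters. The sterol regulatory element written as TCACNCCAC was found at 0 starts, against 1.24% of all promoters. Its shorter form TCANNCCA, which every such element also contains and which can share its CCA with a CCAAT box, occurred once, in Msmo1, against 15.7%. CACGTG, the E-box, occurred once, at the second Dhcr7 start, against 7.15%. The search took exact letters only, so variants of an element were not counted, and Fdft1 and Sqle had no entry to search. Finding 0 matches therefore does not show that an element is absent. These matches describe letters only, and binding was not measured.

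All 8 enzymes had a higher mean log2 level in Dep than in Ctl, where 48.2% of all listed genes did. The median of their log2 folds was 0.52, and that of all genes -0.02. Folds are differences of the mean log2(normalized count + 1), where a normalized count is the number of reads of a gene divided by the size factor of its library. Only in 3 of the 8 did every Dep embryo exceed every Ctl embryo, against 3.09% of all genes. No gene of the table passed the test across all genes (limma, Benjamini-Hochberg adjusted p under 0.05, 0.00% of genes), the 8 included. At an unadjusted p under 0.05 limma counted 225 genes, edgeR 211 and DESeq2 279. After adjustment limma and edgeR called 0, while DESeq2 called 1 gene, which is not among the 8. If no gene differed, a fraction of 0.05 of the 12149 genes would be expected under the unadjusted threshold. Every unadjusted count given here is below that. The limma count of 225 was 420 with the replicate numbers as a block and 399 with library weights, and with 1 embryo left out it ran from 122 (without Ctl 1) to 576 (without Dep 3), with 137 without Ctl 3, 474 without Dep 1 and 349 without Dep 2. These shares stand beside counts on which the enzymes were chosen and are not evidence for them.

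The enzymes did not stand high in every Dep embryo. Dep 2 exceeded all Ctl embryos in 7 enzymes and Dep 3 in 7, whereas Dep 1 exceeded them in 3 and lay below all of them in 2. The mean log2 level of the 8 was 9.60, 9.12 and 9.57 in Ctl 1, 2 and 3, against 9.29, 10.43 and 10.49 in Dep 1, 2 and 3. Their summed normalized counts were 8097, 5807 and 7284 in Ctl and 7884, 14226 and 12612 in Dep, in the same order. Dep 1 thus lay inside the Ctl range by both measures, and the other Dep embryos lay above it. Without Dep 1 the median log2 fold was 0.84, and 6 of the 8 separated from Ctl, against 9.47% of all genes.

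**Figure D1:**
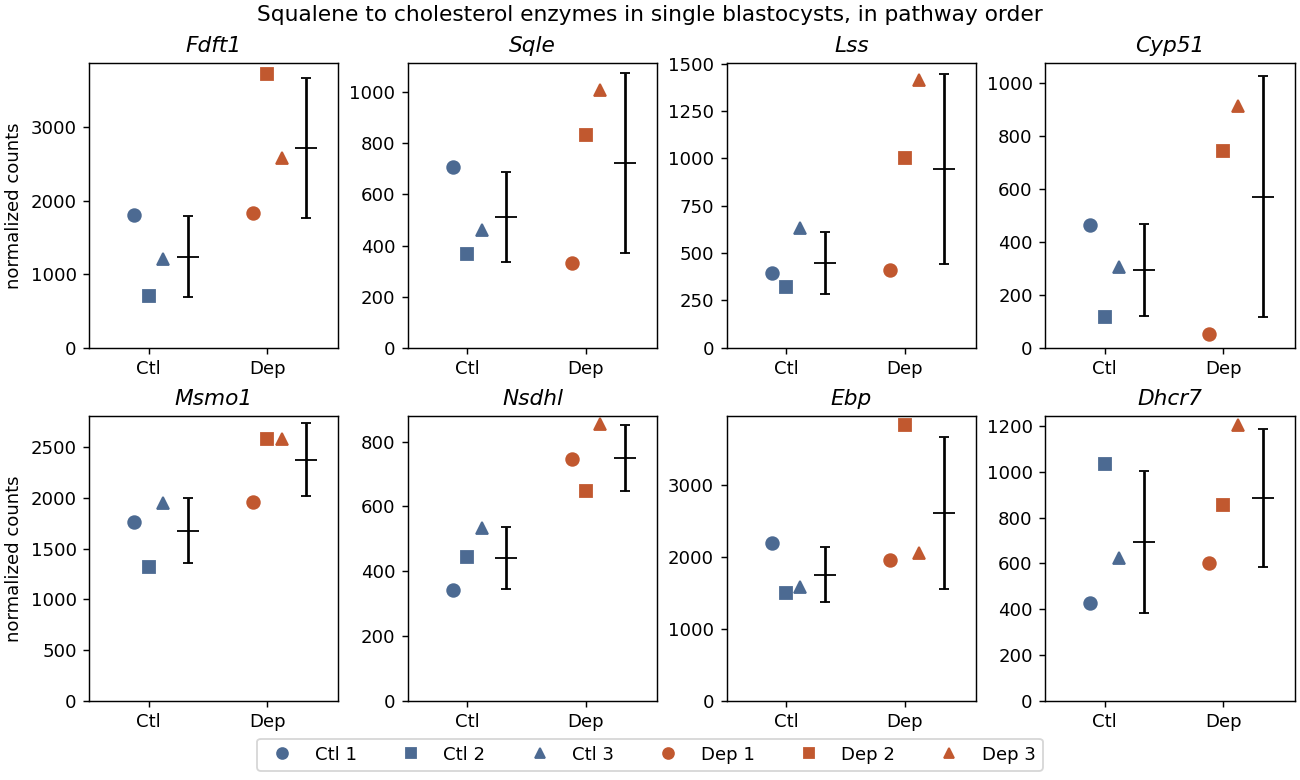
Normalized counts of the 8 enzymes in each embryo, in pathway order, with each group's mean and SD (n = 3) as black bars. Dep 2 and Dep 3 sit above all Ctl embryos in 6 panels, and Dep 1 lies below them for Sqle and Cyp51.

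Squalene synthase, encoded by Fdft1 (ENSMUSG00000021273, protein-coding, chromosome 14, 63145150 to 63179578 in GRCm38), joins a pair of farnesyl diphosphate molecules. It had 1805, 709.7 and 1202 normalized counts in Ctl 1, 2 and 3, against 1831, 3719 and 2583 in Dep 1, 2 and 3. The groups did not overlap, but Dep 1 was 1.01 times the highest Ctl embryo. The means were 1239 ± 549 and 2711 ± 951 (SD, n = 3 each), with a log2 fold of 1.17 ± 0.39 (SE), the largest of the 8.

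Squalene epoxidase, encoded by Sqle (ENSMUSG00000022351, chromosome 15, 59315077 to 59331192), adds the oxygen that becomes the sterol hydroxyl and is a rate-limiting step of this stretch. Its counts were 708, 367 and 461 in Ctl 1, 2 and 3, against 330.2, 834 and 1009 in Dep 1, 2 and 3. Dep 1 was the lowest of the 6 embryos, while Dep 2 and Dep 3 were the highest. The means were 512 ± 176 and 724 ± 352 (SD, n = 3 each), with a log2 fold of 0.40 ± 0.47 (SE). That value was 0.66 without Ctl 1, 0.19 without Ctl 2, and 0.89, 0.23 and 0.09 without Dep 1, 2 and 3, and 0.75 with library weights.

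Lanosterol synthase, encoded by Lss (ENSMUSG00000033105, chromosome 10, 76531588 to 76557138), folds the epoxide into the first sterol. It had 395, 319 and 630.2 normalized counts in Ctl 1, 2 and 3, against 412, 1004 and 1411 in Dep 1, 2 and 3. Dep 1 lay within the Ctl range and the other Dep embryos above it. The means were 448 ± 162 and 942 ± 503 (SD, n = 3 each), with a log2 fold of 0.96 ± 0.48 (SE), which was 1.47 without Dep 1 and 0.58 without Dep 3.

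Cyp51 (ENSMUSG00000001467, chromosome 5, 4081145 to 4104746) encodes the cytochrome P450 that removes the first methyl group from lanosterol. Its counts were 464, 117 and 305 in Ctl 1, 2 and 3, against 53.4, 745 and 915 in Dep 1, 2 and 3. The highest embryo had 17.1 times the lowest, both of them Dep. The means were 295 ± 174 and 571 ± 456 (SD, n = 3 each), with a log2 fold of 0.38 ± 0.97 (SE). Its direction depended on single embryos, at -0.18 without Ctl 2, -0.20 without Dep 2 and -0.35 without Dep 3, against 0.81 without Ctl 1 and 1.69 without Dep 1. It was 1.32 with library weights and 0.95 by edgeR or DESeq2, which compare mean counts rather than mean logs. In the authors' deposited table the log2 folds of the 8 ran from 0.35 for Dhcr7 to 1.13 for Fdft1, with 0.95 for Cyp51. The DESeq2 folds found here equal these for all 8 and come from the same counts, so the deposited folds are not a separate source.

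Msmo1 and Nsdhl act in turn in the complex that takes off the remaining methyl groups. Msmo1 (ENSMUSG00000031604, chromosome 8, 64718139 to 64733792), the methylsterol oxidase, had 1762, 1320 and 1951 normalized counts in Ctl 1, 2 and 3, against 1961, 2584 and 2587 in Dep 1, 2 and 3. The groups separated by little, with Dep 1 at 1.005 times Ctl 3, and Dep 2 and Dep 3 were alike. The means were 1678 ± 324 and 2377 ± 361 (SD, n = 3 each), with a log2 fold of 0.51 ± 0.27 (SE). Nsdhl (ENSMUSG00000031349, X chromosome, 72918557 to 72958514), the dehydrogenase that splits off the carboxyl group, had 342, 445 and 535 in Ctl 1, 2 and 3, against 748, 648 and 854 in Dep 1, 2 and 3. It had the widest separation of the 8, with the lowest Dep embryo at 1.21 times the highest Ctl embryo, and it is the only one of the 8 in which Dep 1 was not the lowest Dep embryo. The means were 440.6 ± 96.5 and 750.0 ± 103 (SD, n = 3 each), with a log2 fold of 0.78 ± 0.33 (SE).

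Ebp and Dhcr7 act near the end of the route. Ebp (ENSMUSG00000031168, X chromosome, 8185329 to 8193512), the isomerase that moves a ring double bond, had 2193, 1495 and 1577 normalized counts in Ctl 1, 2 and 3, against 1949.8, 3836 and 2051 in Dep 1, 2 and 3. Dep 2 alone exceeded all Ctl embryos, and the log2 fold of 0.52 ± 0.33 (SE) was 0.21 without it. The means were 1755 ± 382 and 2612 ± 1061 (SD, n = 3 each). Dhcr7 (ENSMUSG00000058454, chromosome 7, 143823145 to 143848410), the reductase whose product is cholesterol, had 427, 1034 and 622 in Ctl 1, 2 and 3, against 599.7, 856 and 1202 in Dep 1, 2 and 3. Dep 3 alone exceeded all Ctl embryos. The means were 695 ± 310.0 and 886 ± 302 (SD, n = 3 each). The log2 fold of 0.39 ± 0.41 (SE) was 0.09 without Ctl 1, 0.72 without Ctl 2, 0.64 without Dep 1 and 0.14 without Dep 3.

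**Figure D2:**
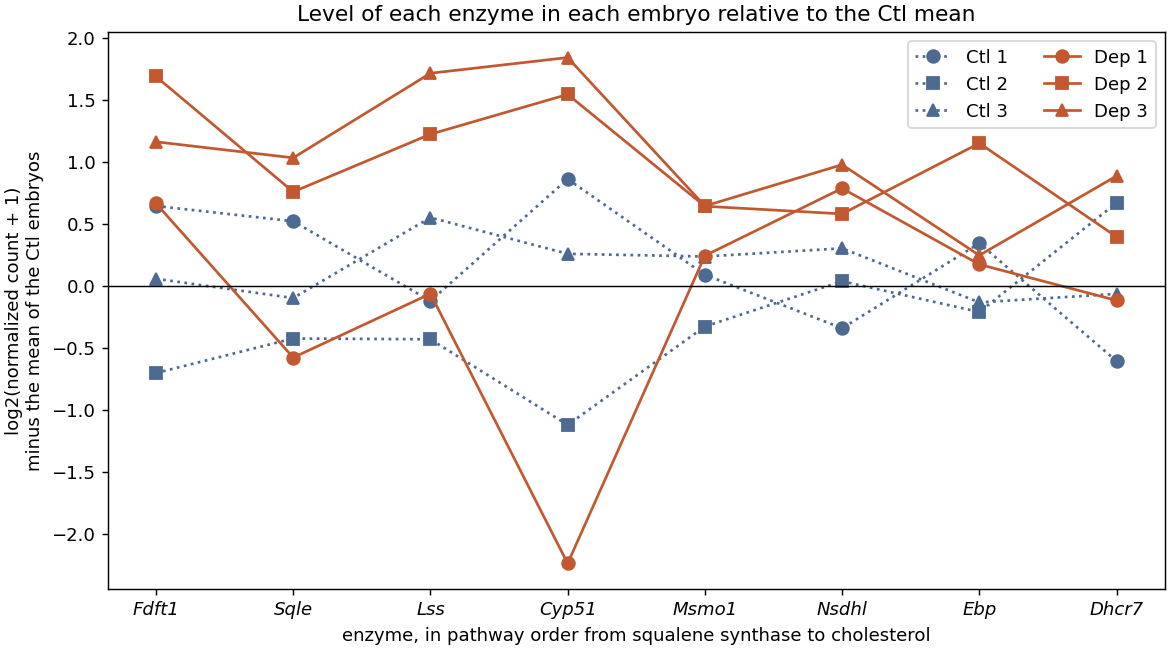
Log2(normalized count + 1) of each enzyme minus the mean of the 3 Ctl embryos, in pathway order, with 1 line per embryo. Dep 2 and Dep 3 stay above 0 at all 8 steps, while Dep 1 runs from 0.79 at Nsdhl down to -2.23 at Cyp51.

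The 2 X-linked enzymes can differ with the number of X chromosomes. Xist had 10312, 5518 and 874 normalized counts in Ctl 1, 2 and 3, against 151, 3784 and 5589 in Dep 1, 2 and 3. Ddx3y, from the Y chromosome, had 1.18, 1159.7 and 2202 in Ctl, against 1424, 266 and 1141 in Dep. In Ctl 1, with the most Xist and nearly no Ddx3y, Ebp was the highest and Nsdhl the lowest of the Ctl embryos. Ctl 2 and Dep 3 were alike in both RNAs, and Dep 3 had more Nsdhl and more Ebp than Ctl 2. In Dep 1, with the least Xist, Nsdhl was above all Ctl embryos and Ebp among them. The part of sex in these values was not tested.

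Spread inside each group is given as a description without a test. The enzymes were chosen from a contrast of these same embryos, so it is not independent of that choice. Ctl 2 had the lowest Ctl value in 6 of the 8, where it was lowest in 32.0% of all genes. Dep 1 had the lowest Dep value in 7 of the 8, where it was lowest in 41.4% of all genes. The mean deviation of the 8 from their group mean was 0.17, -0.31 and 0.14 log2 units in Ctl 1, 2 and 3, against -0.78, 0.36 and 0.42 in Dep 1, 2 and 3. In Ctl 2 Dhcr7 deviated upward by 0.67 and Nsdhl by 0.04, while Cyp51 deviated by -1.12 and Fdft1 by -0.70. The pooled within-group SD of the log2 level was 1.76 for Cyp51, above 90.6% of all genes. It was 0.26 for Msmo1 and 0.27 for Nsdhl, above 11.6% and 12.1% of genes. In all, 5 of the 8 exceeded the median SD of all genes, 0.54.

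Levels between genes were compared per exon length, as FPKM (reads scaled to the length of the merged exons and to the reads in listed genes). Ebp was the most abundant at 51.6 ± 20.7 FPKM (SD over all 6 embryos), followed by Fdft1 at 25.6 ± 14.5, Msmo1 at 18.1 ± 5.32 and Nsdhl at 11.5 ± 4.14. Dhcr7 had 7.57 ± 3.31, Sqle 6.20 ± 3.11, Cyp51 5.55 ± 4.66 and Lss 3.63 ± 2.52, around the median of 6.02 over 11829 genes with a length. Ebp led Fdft1 in 6 of 6 embryos, by 1.13 ± 0.47 log2 units (mean ± SD of the within-embryo difference). Msmo1 led Nsdhl in 6 of 6, by 0.69 ± 0.35, and Nsdhl led Dhcr7 in 5 of 6, by 0.64 ± 0.50. The other neighbours in this order did not differ beyond their spread: Fdft1 and Msmo1 (0.35 ± 0.52), Dhcr7 and Sqle (0.32 ± 0.75), Sqle and Cyp51 (0.64 ± 0.98) and Cyp51 and Lss (0.24 ± 1.09), each in the stated order in 4 of 6 embryos. In Dep 1 Cyp51 had 0.579 FPKM, the lowest value of any of the 8 in any embryo. Merged exons of all annotated isoforms, 10787 bases for Lss, lower the FPKM of genes whose long isoforms are not used.

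**Figure D3:**
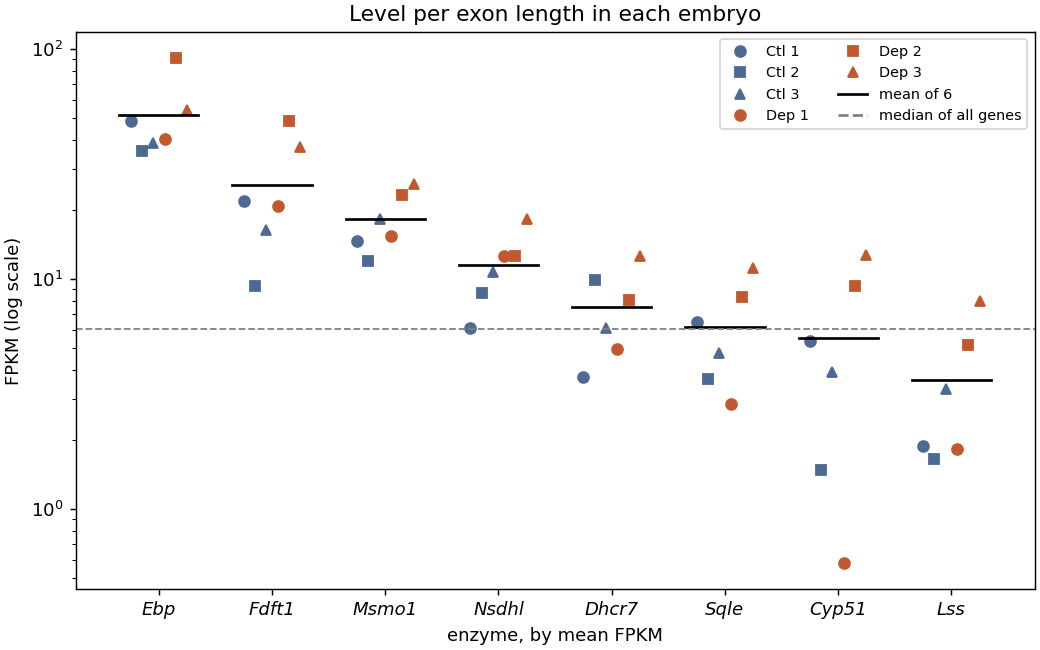
FPKM of each enzyme in each embryo on a log axis, ordered by the mean of the 6 embryos (black bar), with the median over all genes as a dashed line. Ebp at 51.6 and Fdft1 at 25.6 lie well above that median of 6.02, and Cyp51 spans the widest range.

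The other late sterol enzymes did not share the direction of the 8. Of 7 on a list, 6 were measured (Faxdc2 is not listed), 3 with a log2 fold above 0 and 3 below, with a median of -0.05, 0 passing limma and 0 with separate groups. Sc5d, a ring desaturase, had 443, 471 and 374 normalized counts in Ctl 1, 2 and 3, against 228, 718 and 265 in Dep 1, 2 and 3. Lbr, a sterol reductase that also anchors chromatin at the nuclear envelope, had 4719, 3083 and 4822 in Ctl, against 2660.0, 4353 and 4119 in Dep. Dep 1 was the lowest embryo for both of these genes. Hsd17b7, the ketoreductase of the demethylating complex, had a log2 fold of 0.14 ± 0.51 (SE), Tm7sf2, a second reductase, 0.40 ± 0.84, and Erg28, a scaffold of the complex, 0.09 ± 0.25. Over all 14 measured late enzymes 11 were above 0 with a median of 0.39, and without Dep 1 all 14 were above 0 with a median of 0.67. For the 6 alone that count was 6 of 6 without Dep 1, with a median of 0.14. Of all genes 51.9% were above 0 without Dep 1, with a median of 0.02. The 14 include the 8 chosen on this contrast, and most of the 14 had their lowest Dep value in Dep 1. These counts are therefore not evidence.

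Upstream, 7 of 8 measured enzymes of the mevalonate pathway had a log2 fold above 0, against 48.2% of all genes, with a median of 0.83. None passed limma (smallest adjusted p = 0.9997), and 4 had every Dep embryo above every Ctl embryo, against 3.09% of all genes. These were Acat2, the thiolase at the start of the pathway, Mvd, Idi1 and, named after its value was seen, Fdps, which makes the substrate of squalene synthase. Sterol synthesis genes had shown higher levels in this same contrast before the choice, so the counts and shares of this list are not evidence. Fdps had 2494, 1549 and 1223 normalized counts in Ctl 1, 2 and 3, against 3598, 9198 and 4483 in Dep 1, 2 and 3. Idi1, which interconverts the isoprenoid building blocks, had 211, 213 and 107 normalized counts in Ctl 1, 2 and 3, against 273, 557 and 446 in Dep 1, 2 and 3. Acat2 had 1729, 1209 and 1379 in Ctl, against 2201, 2258 and 2637 in Dep. For both of these genes Dep 1 lay above all Ctl embryos. It did so too for Fdft1, Msmo1 and Nsdhl, but not for Sqle, Lss, Cyp51, Ebp or Dhcr7. Mvk and Pmvk, the kinases that phosphorylate mevalonate, had log2 folds of 0.93 ± 0.41 and 0.30 ± 0.27 (SE), and Mvd, the decarboxylase, 1.32 ± 0.38. Averaged over the list, the log2 level was 9.72, 9.31 and 9.35 in Ctl 1, 2 and 3, against 10.02, 10.39 and 10.32 in Dep 1, 2 and 3, so the groups did not overlap, unlike the means of the 8 late enzymes.

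Genes of sterol sensing, uptake and export had a median log2 fold of -0.09, with 7 of 18 measured members above 0 and 0 passing limma. Srebf2, the SREBP that acts chiefly on sterol genes, had 485, 316 and 552 normalized counts in Ctl 1, 2 and 3, against 231, 945 and 1475 in Dep 1, 2 and 3. Srebf1, its relative of fatty acid synthesis, had 352, 518 and 513 in Ctl, against 208, 815 and 974 in Dep. In both genes Dep 1 was the lowest of the 6 embryos and Dep 2 and Dep 3 were the highest, the order also seen for Sqle and Cyp51. That order, Dep 1 below and the other Dep embryos above all Ctl embryos, held for 3.97% of all genes. Insig1, which retains SREBP in the endoplasmic reticulum, had 444, 427 and 645 in Ctl, against 844, 1844 and 995 in Dep, the only member with every Dep embryo above every Ctl embryo (1 of 18, against 3.09% of all genes). Without Dep 1 that count was 6 of 18, against 9.47% of all genes. Its relative Insig2 had a log2 fold of -0.04 ± 0.34 (SE), and Scap, the SREBP escort, 0.24 ± 0.51. Mylip, a ubiquitin ligase named after its values were seen, was the only member with every Dep embryo below every Ctl embryo, against 3.80% of all genes. It had 169, 258 and 278 in Ctl, against 65.6, 119 and 33.7 in Dep.

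Electron donors and degradation factors of the enzymes had 3 of 9 members above 0, a median log2 fold of -0.09 and 0 passing limma. Por, the reductase that feeds Cyp51 and squalene epoxidase, had 659, 1001 and 862 normalized counts in Ctl 1, 2 and 3, against 613, 983 and 667 in Dep 1, 2 and 3. March6, a ligase that degrades squalene epoxidase, had a log2 fold of -0.02 ± 0.34 (SE). Cyb5r3, the cytochrome b5 reductase that serves Msmo1 and Sc5d, had 5186, 5456 and 5089 in Ctl, against 3628, 4837 and 4132 in Dep. Pgrmc1, a haem protein that binds Cyp51, had 7128, 8100 and 7165 in Ctl, against 3673, 6792 and 3618 in Dep. These 2 were the only members, of 9, whose Dep embryos all lay below the Ctl embryos, against 3.80% of all genes. Cyb5a and Cyb5b, the cytochromes themselves, had log2 folds of 0.01 ± 0.28 and 0.14 ± 0.27.

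**Figure D4:**
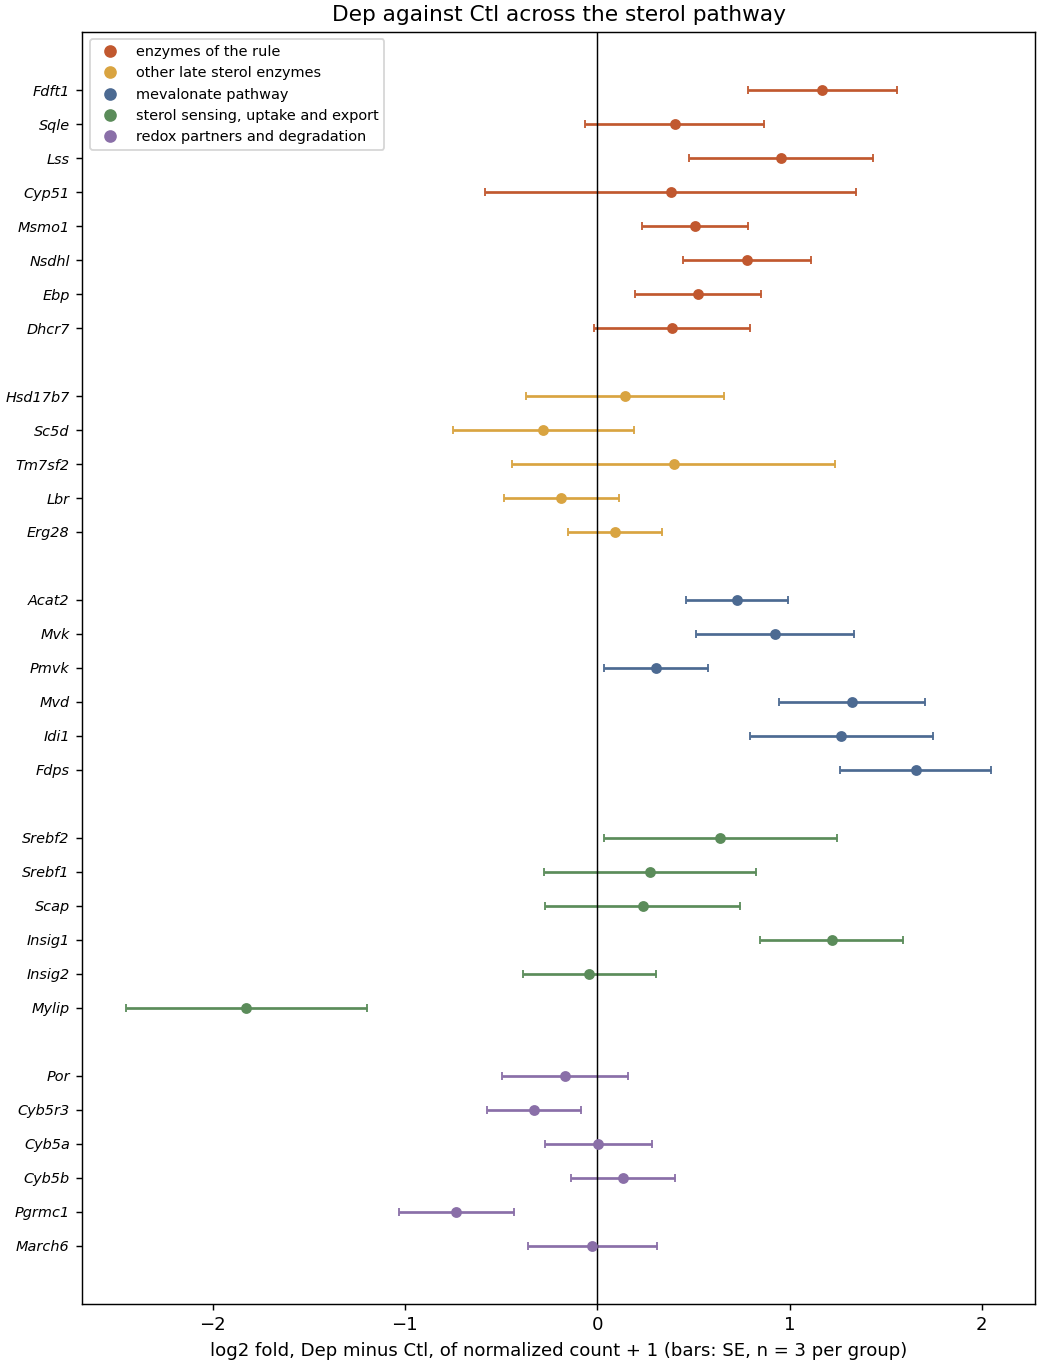
Log2 fold (Dep minus Ctl, of normalized count + 1) with its SE for the 8 enzymes and the genes of the other 4 lists that the text names, n = 3 per group. The 8 enzymes all lie right of 0 between 0.38 and 1.17, the other late enzymes lie on both sides, and the mevalonate pathway reaches 1.66 at Fdps.

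Genes with the profile most like the 8 came from outside the pathway. Likeness was the root mean square distance, in log2 units over the 6 embryos, between a gene's profile and the mean profile of the 8, each centred on its own mean, among 9466 named genes with a mean of at least 100 normalized counts. Recql5, a DNA helicase, was nearest at 0.139, followed by AI597479 at 0.145, Zfp36l1, an RNA decay factor, at 0.163, Ifnar1, an interferon receptor chain, at 0.210, and Scd2, a fatty acyl-CoA desaturase, at 0.219. The median over all candidates was 0.682, and the 8 themselves lay from 0.243 for Sqle to 1.03 for Cyp51. Scd2 had 5819, 3369.7 and 5365 normalized counts in Ctl 1, 2 and 3, against 2968, 8526 and 7861 in Dep 1, 2 and 3. Centred within each group, which leaves out the group difference, the nearest were Tnrc6b (0.0573), Enah (0.0609), Ccdc186 (0.0619), Recql5 (0.0750) and Pqlc3 (0.0871), against a median of 0.575. Of these only Recql5 was higher in Dep, with a log2 fold of 0.41. Tnrc6b (-0.17), Enah (-0.44), Ccdc186 (-0.54) and Pqlc3 (-0.31) were lower in Dep, unlike the 8. The profiles share libraries and size factors and rest on 6 embryos.

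Markers of the cell lineages also differed between embryos. The blastocyst's defining genes Nanog, Pou5f1, Cdx2 and Gata3 had reads in all 6 libraries. The 17 primitive endoderm markers had a mean log2 level of 8.94, 9.94 and 8.06 in Ctl 1, 2 and 3, against 6.86, 9.99 and 10.19 in Dep 1, 2 and 3. Gata4, Sox17, Sox7, Foxq1 and Amn were at 0 in Dep 1, and Gata4 was at 0 in Ctl 3. Not all members were low in Dep 1. Dab2 was highest there, at 22085 against 13162 to 15562 in Ctl. Lrp2 had 20144 in Dep 1, inside the Ctl range of 18536 to 25515. The summed counts of the 17 markers, to which Lrp2 and Dab2 gave the most, ran from 46130 to 57703 in Ctl and from 47278 to 57442 in Dep. By mean log2 level the enzymes and these markers shared their lowest Dep embryo. In Ctl the enzymes were lowest in Ctl 2, where the markers were highest. The 12 epiblast markers had 9.50, 9.84 and 9.59 in Ctl, against 8.09, 9.85 and 9.64 in Dep, with Fgf4 at 0 in Dep 1. Their summed counts ran from 21855 to 23671 in Ctl and from 19145 to 26481 in Dep. The 12 measured trophectoderm markers had 10.38, 10.91 and 10.53 in Ctl, against 10.99, 10.35 and 10.52 in Dep, with summed counts of 59744 to 104455 and 51316 to 142168, and Hand1 at 0 in Ctl 1 and Dep 1. Of 9 cumulus and granulosa markers 0 are listed, and of 8 oocyte markers 2. The part of lineage proportions in the enzyme levels was not tested.

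**Figure D5:**
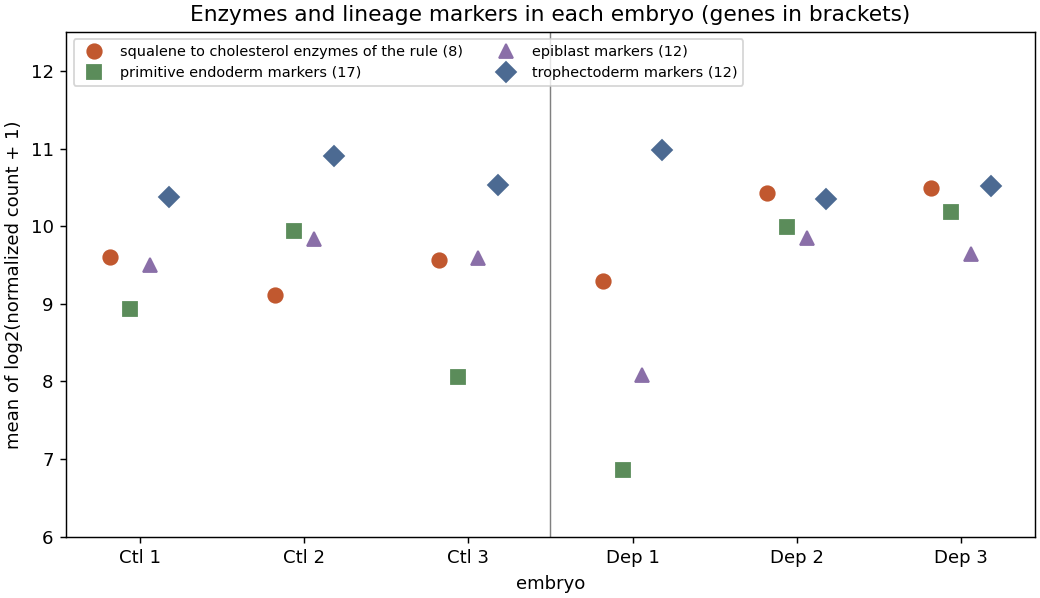
Mean log2(normalized count + 1) of the 8 enzymes and of the primitive endoderm, epiblast and trophectoderm markers in each embryo. Dep 1 has the lowest primitive endoderm and epiblast means, at 6.86 and 8.09, and an enzyme mean of 9.29 inside the Ctl range.

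The libraries held 16543356 to 21548220 reads in listed genes. Reads are not independent molecules, since the kit adds no molecular identifiers. Dep 1 stood apart, with 691 genes of the table at 0 reads, and the other libraries had 5 to 106. Mitochondrial genes took 3.85% to 7.04% of reads in Ctl and 3.05% to 4.0% in Dep. The part of either in the enzyme levels was not tested.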

How the data were processed

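Single blastocysts were lysed whole and amplified with the SMART-Seq v4 kit, per the labels' protocols, which does not keep strand, so reads of overlapping antisense genes cannot be separated. HISAT2, Cufflinks 2.2.1 and the mm10 genome are listed in the submitters' processing notes, and which program counted reads is not given in the sources used here. In the authors' table, the deposited signal is a normalized count, that is, reads over a size factor of the library. Per the file headers it also holds a log2 fold and its error, a test score and p-values. Dividing by the step of each library gave whole reads for 100% of values within 0.01 (the step of Dep 2, 0.993, is near 1). The lowest mean deposited is 14.2, so all 8 enzymes passed that filter.

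Gene names, positions and merged exon lengths came from GENCODE M21 (GRCm38), with 11829 of 12149 identifiers matched. The main test was limma 3.58.1 with a mean-variance trend on log2(normalized count + 1) over all 12149 genes, with Benjamini-Hochberg adjustment and a threshold of 0.05. It was tested on simulated data. edgeR 4.0.16 and DESeq2 1.42.0 on the recovered reads, the pseudocount, rescalings, library weights, a minimum mean of 100, no trend, a replicate block and each embryo left out were alternatives, in R 4.3.3 and Python 3.11.15. The text names every enzyme and the first measured 6 of each written list, of which some are not reported here. The enzymes and lists were chosen with earlier results of these data known.

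The embryos of each group carry the numbers 1 to 3. Same-numbered embryos had correlated deviations across genes, at r = 0.133, 0.151 and 0.129. Each exceeds 0.1, so the numbers were treated as possible pairs, on this check and not on the labels, and only in the replicate block. The main test and its SEs took the embryos as unpaired. Deviations sum to 0 within each group, so these correlations are not independent of each other. No library duplicates another by a chi-square of their reads. The p-values set the group difference against the spread between these embryos. Whether that spread includes differences between males or small RNA preparations is not known, since the labels do not say what the embryos shared.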

Additional observations from a re-analysis of the deposited data

How the results depend on the processing

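All 8 directions held under the 10 alternatives that kept every embryo. For the fit without a trend, the minimum mean and the replicate block this was fixed in advance, because none of them can change an enzyme's fold. Only the others of the 10 could have changed a direction. With 1 embryo left out the count of enzymes higher in Dep was 7 to 8 and the median log2 fold 0.41 to 0.84. The log2 fold of Cyp51 ran from -0.35 to 1.69, reversing without Ctl 2 (-0.18), Dep 2 (-0.20) and Dep 3 (-0.35). The number of enzymes with every Dep embryo above every Ctl embryo was 1 instead of 3 with upper-quartile rescaling (the cause was not tested), and 3 to 6 with an embryo left out (6 without Dep 1). As deposited, the lowest Dep embryo of those 3 was 1.01 (Fdft1), 1.005 (Msmo1) and 1.21 (Nsdhl) times the highest Ctl embryo. DESeq2 called 1 gene of the table. The limma and edgeR settings called 0, with the smallest adjusted p between 0.358 (limma, without Dep 1) and 0.9999. With the replicate block limma called 0 genes, and the enzyme folds and their median of 0.52 were the same by construction, so it changed no call. Each group has 3 embryos, so 1 embryo can carry an enzyme's fold.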
